A study of Mus musculus with 6 samples.

Results

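Alveolar type I cells are the thin, flat cells that cover most of the gas exchange surface of the lung, and caveolae are the small flask-shaped pits of their plasma membrane. Described here are 10 genes of these cells and structures, Ager, Cav1, Cav2, Hopx, Pdpn, Aqp5, Emp2, Rtkn2, Clic5 and Akap5, of 19938 genes with a symbol of their own on the array. They were proposed with earlier results of these data known, were found on the array by gene symbol alone, and each was represented by a single transcript cluster, the set of probes that stands for a gene. The cells were MLE15 (MLE-15), a mouse lung epithelial line from lung tumors of transgenic mice. The transgene is the simian virus large T antigen, driven by a human promoter, that of surfactant protein C, which is active in alveolar type II cells. All 6 lines thus carry that antigen and all were selected with puromycin. The 3 Nkx2-1-shRNA lines had received a mix of shRNAs against Nkx2-1 in the lentivirus vector pLKO.1 (called knock-down lines below), and the 3 control lines the empty vector according to the sample labels, which call it the non-silencing control; the paper speaks of a non-silencing control without naming the vector. The paper describes lines that were transduced independently and kept as stable stocks, whereas the sample labels give 48 h. RNA of each line was measured on 1 Affymetrix Mouse Gene ST array.

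Caveolins and cavins build caveolae together: caveolins sit in the membrane as hairpins and bind cholesterol, and cavins coat the pit from the cytoplasm. Type II cells, the cuboidal cells that make surfactant, are the progenitors of type I cells, and NKX2-1 is a homeodomain factor that both cell types require. The genes below encode parts of the flat cell surface (Ager, Pdpn), its caveolae and membrane (Cav1, Cav2, Emp2), its channels (Aqp5, Clic5) and signaling or nuclear proteins (Rtkn2, Akap5, Hopx).

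The core CAAG, which the paper names as that of the NKX2-1 consensus binding site, was looked for on both strands (CAAG or CTTG) in RefSeq promoter windows of build GRCm38.p6, each 250 bases before to 50 bases after a start. The table held 11 windows for 9 of the 10 genes, and Rtkn2 was not in it. For each gene whose mRNA differed between the groups the match nearest before the start is shown with its surrounding bases, on the gene's strand from 5′ to 3′ and with the core in capitals; for Cav2 a stretch with 2 cores is shown as well, because no other gene here had as many. The stretches lie at chr6:17306299-17306328 (Cav1, plus strand, core 23 bases before the start), chr6:17281108-17281137 (Cav2, plus strand, 64 bases) and chr6:17281027-17281056 (Cav2, plus strand, 145 bases). Those of the other genes lie at chr16:10314027-10314056 (Emp2, minus strand, 75 bases), chr17:34597808-34597837 (Ager, plus strand, 29 bases), chr17:44188345-44188374 (Clic5, plus strand, 214 bases) and chr12:76324641-76324670 (Akap5, plus strand, 247 bases).
Cav1: cctggcgaacagcCAAGaggctccctccca
Cav2, nearest: gttccccgggctcCTTGgggctttggcaaa
Cav2, with 2 cores: cctgttcggactgCAAGcCAAGtggcccgg
Emp2: ctggacggcccagCAAGgggaggtgggggg
Ager: agggtagagggtgCAAGccccacctagggc
Clic5: aaaaaaaacaaacCTTGaaaatcatcttct
Akap5: cctCTTGcagtcctcctgctttgctttagt

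A core this short is common. It occurred in 10 of the 11 windows and in 90.6% of all 32851 promoter windows of that length. The Cav2 window had 6 matches, a number reached or passed by 5.93% of all windows. The 2 Hopx windows had 4 and 3 matches, the 2 Cav1 windows 3 and 1, and the Ager and Pdpn windows 2 each. Emp2, Clic5 and Akap5 had 1 each, and the Aqp5 window had none. The longer form CTCAAG (or CTTGAG) was found in 2 of the 11 windows, both of Hopx, against 15.9% of all windows. The letters GGAATG (or CATTCC), a core bound by TEAD factors, were in none of the 11 windows and in 14.7% of all. These matches describe the letters of the windows only; binding was not measured by these arrays.

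Nkx2-1 itself gave log2 values of 7.91, 7.98 and 7.83 in the knock-down lines against 8.61, 8.61 and 8.59 in the controls, so its mRNA was reduced to 61.8% of control (limma, adjusted p = 0.00155). Over all 35557 transcript clusters the arrays correlated at 0.991 to 0.994 within a group and at 0.979 to 0.983 between the groups, and no line stood apart by its correlations. Values at or under 4.35 were taken as background, the 95th percentile of sensory receptor genes, which are not expected in lung epithelium. Differences below are limma estimates, with p-values adjusted over all transcript clusters (Benjamini-Hochberg), and a gene was called higher or lower at an adjusted p under 0.05. With 3 lines a group, 0.1 is the smallest p of an exact permutation test, and each of the 6 genes called below reached it.

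Of the 10 genes, 5 were higher in the Nkx2-1-shRNA lines (Cav1, Cav2, Clic5, Ager and Emp2), 1 was lower (Akap5) and 4 were not called (Aqp5, Hopx, Pdpn and Rtkn2). Among all 19938 genes 10.7% were called higher and 9.88% lower. Among the 13563 genes above background in at least 1 group, which include all 10, these shares were 15.3% and 13.9%. The same shares stand beside the counts of all gene lists and of all neighboring genes below. The groups did not overlap for the 6 called genes and overlapped for the other 4, against 40.2% of all genes without overlap and 52.5% of those above background. The median log2 fold change of the 10 genes was 0.31, and that of all genes was −0.007. At the study's stricter threshold (adjusted p under 0.0005 and log2 fold change beyond 0.6) 2 of the 10 passed, Cav1 and Clic5, against 1.88% of all genes. As RNA came from whole cultures, a change in the number of cells that carry an mRNA and a change in the mRNA per cell cannot be told apart.

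**Figure D1:**
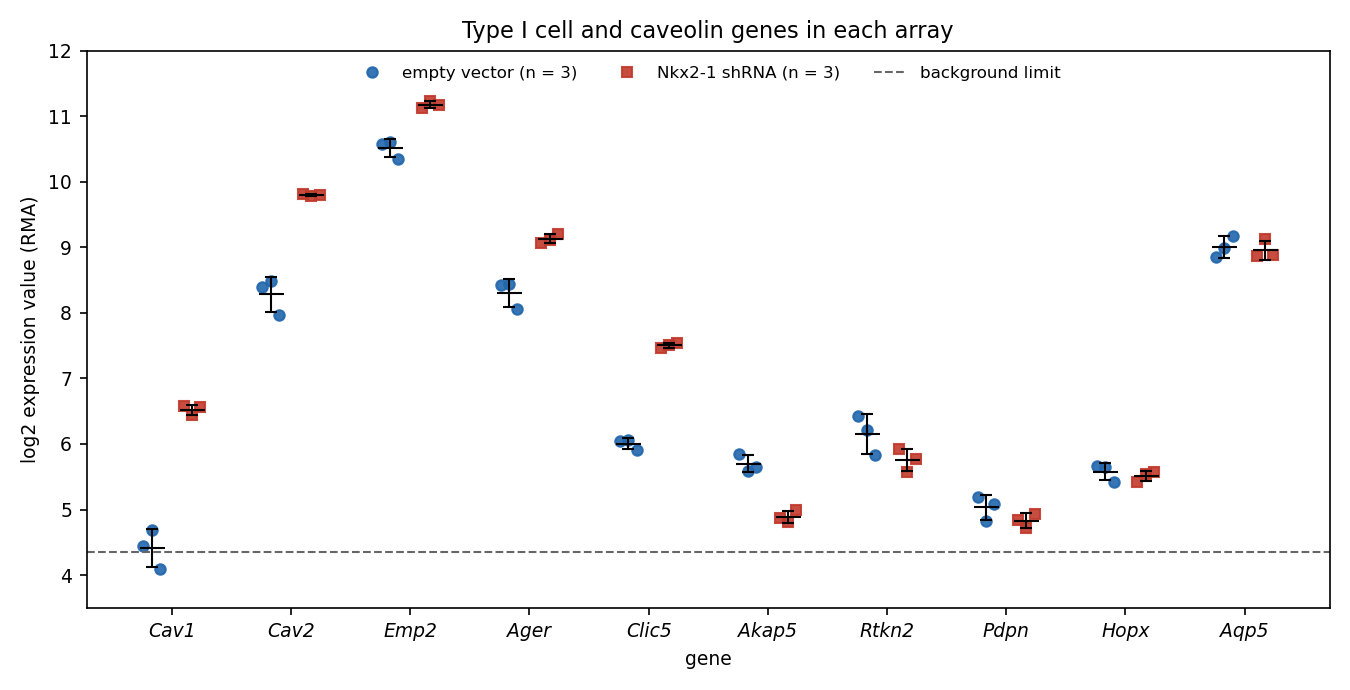
Log2 expression values (RMA, vertical axis) of the 10 genes in the 3 control lines (circles) and the 3 Nkx2-1-shRNA lines (squares), with mean and SD in black and the background limit of 4.35 dashed. Cav1, Cav2, Emp2, Ager and Clic5 lay higher and Akap5 lower in every Nkx2-1-shRNA line, and Cav1 in the control lines lay at the background limit; heights of different genes are not comparable.

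The largest log2 fold change of the 10 was that of a caveolin gene. Cav1, which encodes the main structural protein of caveolae outside muscle (transcript cluster 10536499), gave log2 values of 6.58, 6.44 and 6.56 in the knock-down lines against 4.45, 4.68 and 4.10 in the controls. The groups were far apart, and the control values lay around the background limit, with 1 of the 3 under it. The means were 6.52 ± 0.076 and 4.41 ± 0.29 (SD, n = 3), a 4.32-fold higher level with an interval of 3.37 to 5.54 on the linear scale (log2 fold change 2.11, SE 0.15, 95% confidence interval 1.75 to 2.47, limma adjusted p = 0.000313). As the control values lay at the background limit, this fold is that of the array signal.

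Cav2 encodes caveolin-2, which forms mixed oligomers with caveolin-1. Transcript cluster 10536494 gave log2 values of 9.81, 9.78 and 9.80 after knock-down and of 8.39, 8.48 and 7.97 in the controls. All control lines lay below all knock-down lines, whose own SD was 0.018. The level was 2.86-fold higher (log2 fold change 1.52, SE 0.14, interval 1.19 to 1.84, limma adjusted p = 0.000786). Cav3, the caveolin of muscle, was below background with a mean of 4.25 in both groups.

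Emp2 encodes a membrane protein with 4 spans that is abundant in type I cells. Its log2 values (transcript cluster 10437639) were 11.13, 11.23 and 11.17 in the knock-down lines against 10.58, 10.61 and 10.36 in the controls. Every knock-down line was above every control line. The level was 1.58-fold higher (log2 fold change 0.66, SE 0.094, interval 0.44 to 0.89, limma adjusted p = 0.00449).

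Other genes listed with caveolae went in both directions, as did the genes of the whole array. Of all genes 10.7% were higher and 9.88% lower, and of those above background 15.3% and 13.9%. The list of 13 held genes of caveola coats and of the proteins that shape and cut such pits (Cav3, the cavins, pacsins, EHD proteins and dynamin 2). It also held the genes of the flotillins, which are raft proteins. Of these 13 genes, 3 were higher, 1 was lower and 9 were not called, with a median log2 fold change of 0.05. The number higher was 1 without Nkx2-1-shRNA replicate 1 or 2, when Flot1 and Cavin1 were not called, and the number lower was 2 without control replicate 3. Pacsin2, an F-BAR protein that bends membrane at caveolae, was higher by 0.66 on the log2 scale (limma adjusted p = 0.00253) and the raft protein gene Flot1 by 0.55 (limma adjusted p = 0.0175). Cavin1 (Ptrf), the coat protein that caveolae need, gave log2 values of 8.48, 8.68 and 8.29 in the knock-down lines against 7.85, 8.11 and 8.06 in the controls. This was a higher level by 0.48 (SE 0.13, limma adjusted p = 0.0446), close to the threshold, and the call ended without any one of 5 of the 6 lines. Cavin2 (Sdpr), a coat protein that curves the membrane, went the other way. Its values were 4.32, 4.21 and 4.68 in the knock-down lines against 6.01, 6.04 and 6.12 in the controls. Its mRNA was thus at 31.8% of control with 2 of the 3 knock-down lines under the background limit (log2 fold change −1.65, SE 0.13, limma adjusted p = 0.000428).

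Ager, the receptor for advanced glycation end products and the classical surface marker of type I cells (transcript cluster 10444407), gave log2 values of 9.07, 9.11 and 9.21 in the knock-down lines against 8.43, 8.44 and 8.06 in the controls. It was well above background in all 6 lines, and the groups did not overlap. The level was 1.77-fold higher (log2 fold change 0.82, SE 0.12, interval 0.53 to 1.11, limma adjusted p = 0.00511).

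Pdpn encodes podoplanin, the mucin-like protein of the apical type I membrane, also known from lymphatic endothelium. Its log2 values (transcript cluster 10518147) were 4.85, 4.71 and 4.93 in the knock-down lines against 5.19, 4.82 and 5.08 in the controls. The groups overlapped and all values were within 1 log2 unit of the background limit. The log2 fold change was −0.20 (SE 0.12, interval −0.48 to 0.081, limma adjusted p = 0.324), so that a rise of the size of Ager lay outside the interval.

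Aqp5, the water channel of the apical type I membrane, gave log2 values of 8.86, 9.13 and 8.89 in the knock-down lines against 8.85, 8.99 and 9.18 in the controls (transcript cluster 10426767). It was expressed in all lines with overlapping groups. The log2 fold change was −0.046 (SE 0.12, interval −0.33 to 0.24, limma adjusted p = 0.850).

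Clic5 encodes a chloride intracellular channel protein that associates with ezrin, radixin and the cortical actin, and it is enriched in type I cells. Its log2 values (transcript cluster 10445347) were 7.46, 7.51 and 7.54 in the knock-down lines against 6.05, 6.05 and 5.91 in the controls. The 2 groups were separated by many times their own spread. The level was 2.83-fold higher, with an interval of 2.49 to 3.22 on the linear scale (log2 fold change 1.50, SE 0.079, interval 1.31 to 1.69, limma adjusted p = 0.000107), the smallest adjusted p of the 10 genes.

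Akap5, which encodes an anchor protein that holds protein kinase A and calcineurin at the membrane, was the gene that fell. Its log2 values (transcript cluster 10396640) were 4.87, 4.81 and 4.99 in the knock-down lines against 5.85, 5.59 and 5.66 in the controls. All knock-down lines lay below all control lines but above background. The mRNA was at 57.1% of control (log2 fold change −0.81, SE 0.098, interval −1.04 to −0.58, limma adjusted p = 0.00240).

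Rtkn2, a signaling gene and type I marker, gave log2 values of 5.92, 5.58 and 5.77 in the knock-down lines against 6.42, 6.21 and 5.83 in the controls (transcript cluster 10363743). The knock-down lines tended to lie lower, but 1 control line fell among them. The log2 fold change of −0.40 (SE 0.17) did not pass (limma adjusted p = 0.169). Without control replicate 3 it was −0.56 and did pass (limma adjusted p = 0.0485).

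Hopx encodes a small homeodomain protein without DNA binding that marks type I cells and acts with serum response factor and histone deacetylase. Its log2 values (transcript cluster 10530819) were 5.42, 5.55 and 5.57 in the knock-down lines against 5.66, 5.64 and 5.43 in the controls. The groups overlapped, and the log2 fold change of −0.064 (SE 0.096, interval −0.29 to 0.16) did not pass (limma adjusted p = 0.728).

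**Figure D2:**
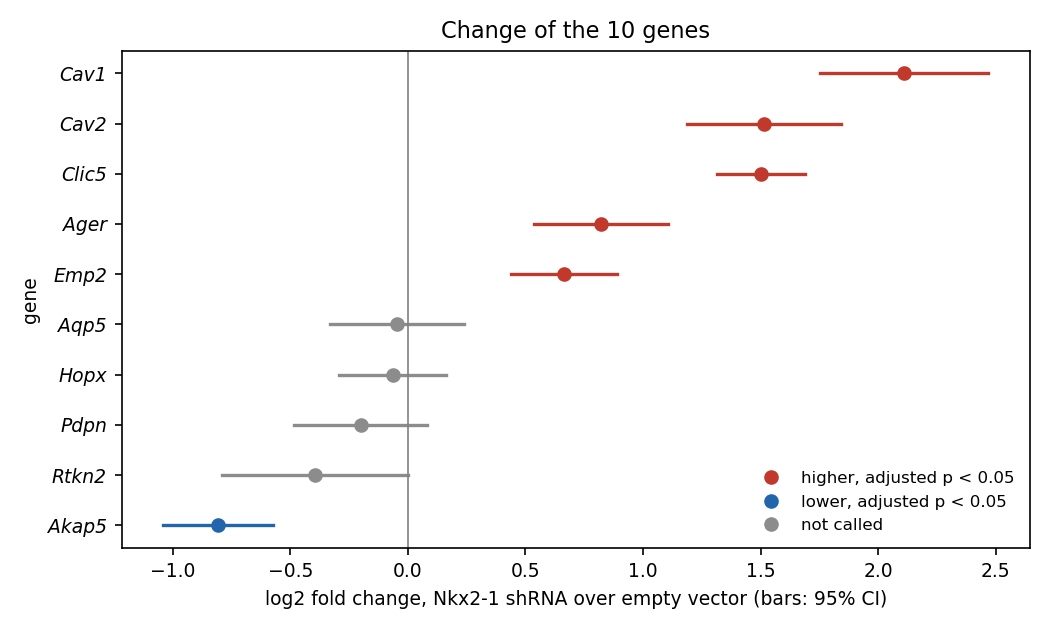
Log2 fold change of each gene, Nkx2-1-shRNA over control lines (points), with its 95% confidence interval from limma (bars). The intervals of Cav1, Cav2, Clic5, Ager and Emp2 lay above 0 and that of Akap5 below 0, and those of Aqp5, Hopx, Pdpn and Rtkn2 included 0.

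The control lines varied more than the knock-down lines for all 10 genes, with SDs of 0.080 (Clic5) to 0.30 (Rtkn2) against 0.018 (Cav2) to 0.17 (Rtkn2); over all 19938 genes the control SD was the larger for 60.5%. Control replicate 3 had the lowest value of its group for 7 of the 10 genes, the 5 higher ones included, against 39.7% of all genes. Without this line the log2 fold changes were 1.96 for Cav1, 1.36 for Cav2, 1.46 for Clic5, 0.70 for Ager and 0.58 for Emp2, and each was still called.

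Relatives of these genes in the same families were called in both directions. The families are small, and of all genes above background 15.3% were higher and 13.9% lower. The gene Emp2 belongs to a family of 4 with Emp1, Emp3 and Pmp22, all of which were called. Pmp22, a membrane protein of myelin and epithelial junctions, gave log2 values of 9.20, 9.19 and 9.24 in the knock-down lines against 7.22, 7.06 and 6.53 in the controls. Its level was 4.83-fold higher (log2 fold change 2.27, SE 0.17, limma adjusted p = 0.000411). That of Emp2 was 1.58-fold higher. Emp1, a membrane protein of squamous and injured epithelium, was higher by 1.41 (limma adjusted p = 0.000340), and Emp3 was lower, with a log2 fold change of −0.39 (limma adjusted p = 0.0132), a call that ended without Nkx2-1-shRNA replicate 2 (limma adjusted p = 0.0514).

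Of the 5 CLIC genes, Clic1 (0.73) and Clic4 (0.62) were higher together with Clic5, Clic3 was lower (−0.55) and Clic6 was below background. The call of Clic3 ended without Nkx2-1-shRNA replicate 1 or 3. Among 10 aquaporin genes, to which Aqp5 belongs, 2 were higher, 1 was lower and 7 were not called. The call of Aqp8 as higher (0.47, limma adjusted p = 0.0427) held only without control replicate 1 among the lines left out. The glycerol and water channel Aqp3 was higher by 0.82 (limma adjusted p = 0.00377), and Aqp11, a channel of intracellular membranes, was lower (−0.77, limma adjusted p = 0.00565). Of 12 AKAP genes 2 were higher and 2 were lower, and Akap12 was the other called lower (−0.65, limma adjusted p = 0.0265), though not without control replicate 3 or any single Nkx2-1-shRNA line. Akap9, called higher (0.40, limma adjusted p = 0.0419), lost its call whichever line was left out. Rtkn, the paralogue of Rtkn2, was higher by 0.74 (limma adjusted p = 0.00157), whereas Rtkn2 itself was not called.

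**Figure D3:**
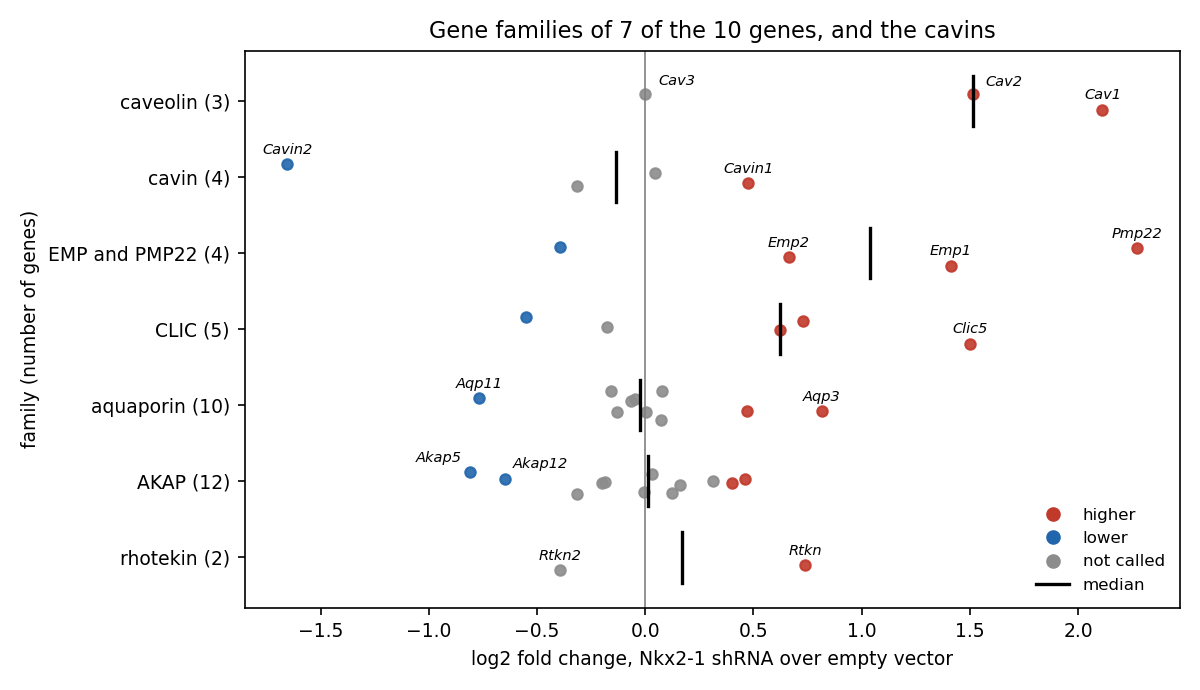
Log2 fold change of the listed genes in the families of Cav1 and Cav2, Emp2, Clic5, Aqp5, Akap5 and Rtkn2 and in the cavin family, Nkx2-1-shRNA over control lines, 1 point per gene, colored by call at an adjusted p under 0.05, with family medians as black bars (vertical scatter within a family has no meaning). Cav1, Cav2, Pmp22, Emp1 and Clic5 lay farthest to the right, and Cavin2 at −1.65 farthest to the left.

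Of 17 listed genes for known binding partners of these proteins, 15 could be read, of which 2 were higher, 4 were lower and 9 were not called. Without Nkx2-1-shRNA replicate 1 or 2 only Rdx was lower among the partners. Both higher ones encode partners of the anchor protein of Akap5. Prkar2b, a regulatory subunit of protein kinase A, was higher by 0.97 (limma adjusted p = 0.00263) and Ppp3ca, the catalytic subunit of calcineurin, by 0.60 (limma adjusted p = 0.00251), while the other regulatory subunit, Prkar2a, was not called (0.09). Of the membrane-to-actin linkers that associate with CLIC5 and podoplanin, Rdx was lower (−0.60, limma adjusted p = 0.00395) and Ezr (−0.05) and Msn (0.27) were not called. The partners of HOPX, Hdac2 (−0.50, limma adjusted p = 0.0159) and Srf (−0.43, limma adjusted p = 0.0139), were both lower. Of the ligands of the Ager product, Hmgb1 was lower (−0.49, limma adjusted p = 0.0332), S100a8, S100a9 and S100b were not called, and its intracellular partner Diaph1 had a log2 fold change of −0.002. The call of Hmgb1 held only without Nkx2-1-shRNA replicate 3 among the lines left out. Clec1b, the receptor for podoplanin on platelets, was below background.

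A further list of 24 genes described in type I cells held 11 that were higher, 1 that was lower and 12 that were not called, with a median log2 fold change of 0.24. Wnt7a, which encodes a secreted Wnt ligand, gave log2 values of 8.55, 8.50 and 8.57 in the knock-down lines against 6.00, 5.94 and 5.56 in the controls. This was a 6.53-fold higher level (limma adjusted p = 8.0e-05). Sema3e, a secreted guidance factor, was higher by 2.60 on the log2 scale (limma adjusted p = 6.9e-05), from 4.82 to 7.43. Cryab, a small heat shock protein gene, was higher by 1.32 (limma adjusted p = 0.000370), and Vegfa, the vascular growth factor that type I cells supply to capillaries, by 1.27 (limma adjusted p = 0.000133). These 4 were also the ones past the study's threshold by limma. The gene that fell was Scnn1g, the gamma subunit of the epithelial sodium channel (−0.93, limma adjusted p = 0.00274), and its beta subunit gene Scnn1b was below background. Timp3, Limch1, Scnn1b and Cyp2b10 were below background in both groups, and the tight junction gene Cldn18 was at the limit, with means of 4.31 and 4.42.

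The cells came from a line with type II features, and markers of that type were read beside the type I genes. Of 15 type II genes 2 were higher, 7 were lower and 6 were not called, with a median of −0.17, and 1 was higher without any one of the 5 lines other than control replicate 3. Sftpc, the surfactant protein C gene, was at background in the knock-down lines with values of 4.10, 4.29 and 3.85, against 7.22, 7.92 and 8.05 in the controls (limma adjusted p = 0.000195). Cd36 (−2.58, to below background), Lpcat1 (−1.09) and Muc1 (−0.83) were lower too. The 2 higher genes were Napsa (0.58, limma adjusted p = 0.00850) and Sftpd (0.44, limma adjusted p = 0.0349). Sftpb, the surfactant protein B gene, was not called (0.14), with means of 11.83 and 11.69. Lamp3, Slc34a2 and Lyz2 were below background in both groups. At this limit, genes of the type I and of the type II list were found on either side of background.

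Genes that mark the state between type II and type I cells were mostly higher, 9 of the 12 that could be read of 14 listed, with none lower and a median of 1.15. The largest were the stress gene Ndrg1 (3.18), Tnip3, an inhibitor of NF-kappa B signaling (2.22), the tight junction gene Cldn4 (1.74) and the growth factor gene Hbegf (1.67), whereas Krt8, the best known of them, was not called (0.12, limma adjusted p = 0.783). Of 12 transcription factor genes of the alveolar epithelium 3 were higher and 6 lower, Nkx2-1 included, and 3 were lower without Nkx2-1-shRNA replicate 1 or without control replicate 3. Sox9 was higher by 0.77 and Nfib, which lung maturation requires, had a log2 fold change of −1.19. Foxa1 was lower, with one of −0.85 (limma adjusted p = 0.00434). The part of these genes in the results of the 10 was not tested.

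Cav1, Cav2 and Pdpn are also expressed in endothelium, lymphatic vessels or fibroblasts, so markers of those cells were read on the same arrays. Of 10 endothelial genes 1 was higher (Vwf by 0.41, a call that held only without Nkx2-1-shRNA replicate 2 among the lines left out), 1 was lower (Tek, from a mean of 5.77 to 3.77, below background) and 8 were not called. Pecam1, Cdh5, Kdr and Emcn were below background in both groups. The sum of the 10 on the linear scale was 299 to 318 in the Nkx2-1-shRNA lines and 320 to 336 in the control lines. Heights of different genes are not comparable, so this sum and those below are weighted to the strongest signals. They include genes below background and do not count cells. Without Tek the sum of the other 9 was 288 to 302 and 271 to 275, higher in each knock-down line. These 9 include Vwf, the only one of them that was called, with log2 values of 6.27, 6.13 and 6.37 against 5.89, 5.76 and 5.88. The other 8 were not called, and their sum was not computed, so the higher sum is not a result about them. The part of endothelial genes in the Cav1 and Cav2 results was not tested. Of 4 lymphatic genes (5 listed) none was called (limma; the smallest adjusted p was 0.0908, for Prox1), Mmrn1 and Flt4 were below background, and the sums were 66.7 to 74.3 and 62.6 to 67.8.

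Of 10 fibroblast and muscle genes none was called by limma. Their sums were 262 to 281 in the Nkx2-1-shRNA lines and 249 to 275 in the control lines, and Dcn and Lum were below background. Col1a1 had means of 5.90 and 5.81. Of 6 leukocyte genes (7 listed) 1 was called, Csf1r (0.51), which stayed below background in both groups as did Ptprc, and the sums were 167 to 182 and 166 to 206.

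Genes of other epithelia moved as well. Of 8 basal cell genes 3 were higher, namely the desmosomal cadherin gene Dsg3 (a mean of 8.32 against 3.93, the latter below background), Krt14 (1.64) and the integrin gene Itgb4 (0.86), and Ngfr was lower (−0.34), a call that ended without any one line, while the defining factor Trp63 (0.12) and Krt5 (0.15) were not called. The sums were 910 to 1001 in the Nkx2-1-shRNA lines and 378 to 402 in the control lines. Of 8 airway genes 1 was called, Bpifa1, a secreted airway protein gene, which fell by 5.23 on the log2 scale, and Scgb1a1, Foxj1 and 4 others were below background in both groups. The sums of the 8 were 191 to 213 and 3558 to 4482, in the control lines almost all of it Bpifa1. The part of these other epithelial genes in the results of the 10 genes was not tested.

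**Figure D4:**
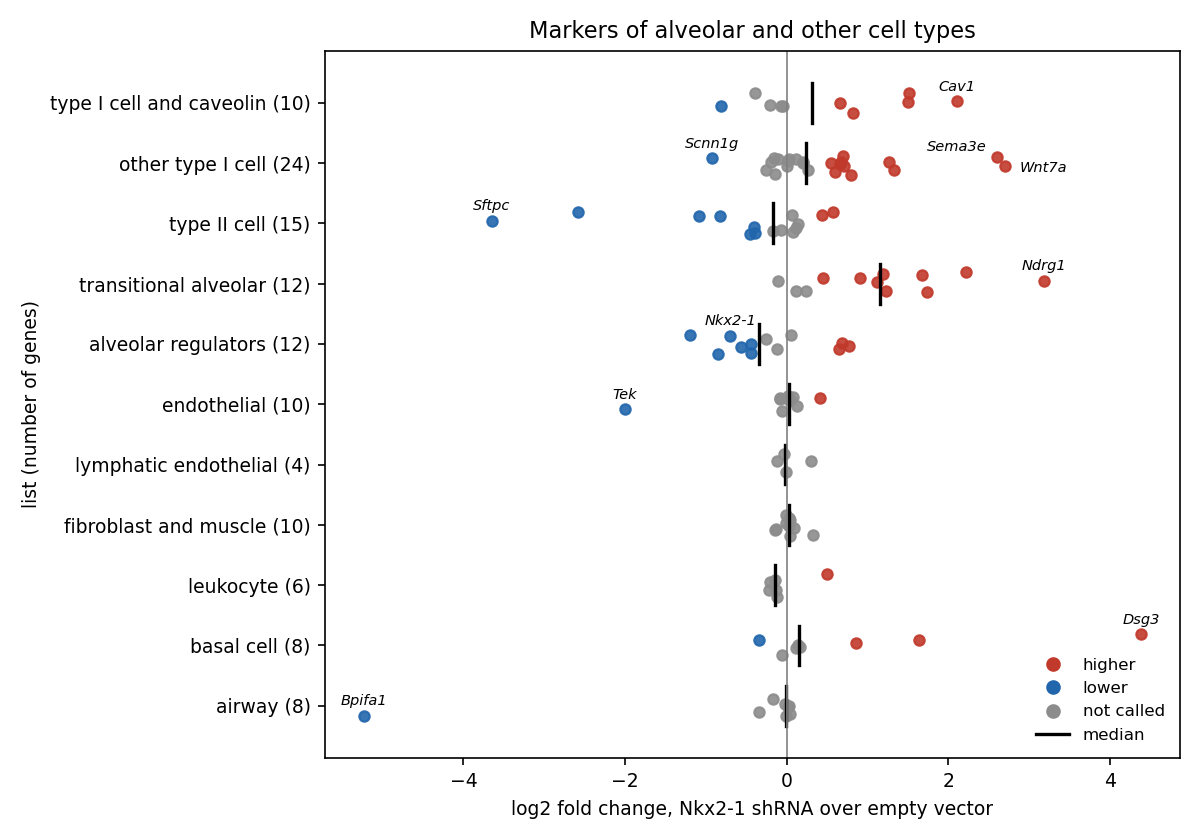
Log2 fold change of each gene in the lists of cell type markers, Nkx2-1-shRNA over control lines, 1 point per gene, colored by call at an adjusted p under 0.05, with list medians as black bars and numbers of genes in brackets (vertical scatter within a list has no meaning). The 10 genes described here had a median of 0.31, the transitional genes 1.15 and the type II genes −0.17, and the medians of the endothelial, lymphatic and fibroblast lists lay around 0; Sftpc, Tek and Dsg3 were below background in 1 group, so their distance from 0 is that of the signal.

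Cav1 and Cav2 lie next to each other on chromosome 6, and the measured protein-coding genes around them were read in the order of RefSeq GRCm38.p6. Tes, Cav2, Cav1 and Met followed each other in this order and all 4 were called higher. Tes, which encodes a focal adhesion protein, gave log2 values of 10.10, 10.13 and 9.96 in the knock-down lines against 9.12, 9.23 and 9.16 in the controls (0.90, limma adjusted p = 0.000858). Met, the hepatocyte growth factor receptor gene, had 10.35, 10.20 and 10.43 against 9.49, 9.16 and 9.25 (1.02, limma adjusted p = 0.00166). Both had smaller log2 fold changes than the caveolin genes between them, a difference that was not tested. Beyond them Mdfic (0.38) and Ppp1r3a (0.75) were higher, and Tfec (−0.18), Foxp2 (0.03), Capza2 (0.09), St7 (0.11), Wnt2 (−0.17) and Asz1 (0.07) were not called; these 8 genes were named after their values were seen.

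The other genes stood in quieter or mixed surroundings, each read over its 5 nearest measured protein-coding genes on either side. The shares over all genes were 10.7% higher and 9.88% lower, and over those above background 15.3% and 13.9%. Around Ager on chromosome 17 none of the 10 neighbors was higher and 1 was lower, and the adjacent Pbx2 (−0.004) and Rnf5 (−0.05) were not called. Around Emp2 on chromosome 16 none of the 10 was called by limma, and the adjacent Atf7ip2 and Tekt5 had log2 fold changes of 0.30 and 0.07. Around Clic5 on chromosome 17, 3 of 10 were higher, among them the adjacent Enpp4 (0.29, limma adjusted p = 0.0394), while Supt3 on the other side was not called (−0.30).

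Around Akap5 on chromosome 12 all 10 neighbors had a log2 fold change below 0, where the median of all genes was −0.007. Of them 3 were called lower, against 9.88% of all genes and 13.9% of those above background. The adjacent Mthfd1, a folate pathway enzyme gene, gave log2 values of 8.28, 8.34 and 8.30 in the knock-down lines against 9.61, 9.63 and 9.65 in the controls (log2 fold change −1.32, limma adjusted p = 0.000107). Zbtb25 on its other side was not called (−0.01). Around Rtkn2 on chromosome 10, 1 neighbor was higher and 3 were lower, among them the adjacent Arid5b (−0.90), and Zfp365 was not called (−0.05). Around Aqp5 on chromosome 15, 2 of 10 neighbors were higher and 2 were lower, with log2 fold changes from −0.65 to 1.90. The adjacent Aqp2 (0.002) and Aqp6 (0.07) were not called. Around Hopx on chromosome 5, 1 of 10 neighbors was lower, and the adjacent Thegl (0.009) and Spink2 (−0.34) were not called. Around Pdpn on chromosome 4 none was called by limma, and the adjacent Prdm2 and Lrrc38 had log2 fold changes of −0.14 and 0.21.

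**Figure D5:**
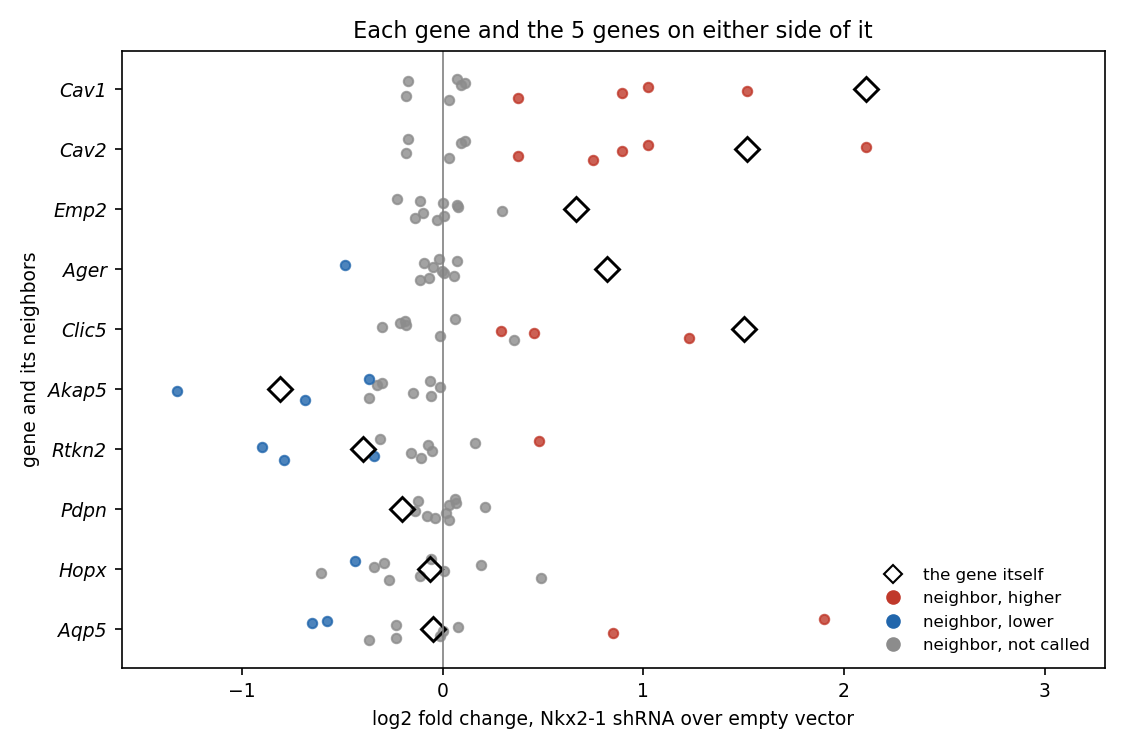
Log2 fold change, Nkx2-1-shRNA over control lines, of each gene (diamond) and of the 5 measured genes on either side of it (points, colored by call at an adjusted p under 0.05; vertical scatter follows gene order). Cav1 and Cav2 appear among each other's neighbors, and all 10 neighbors of Akap5 lay below 0.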

How the data were processed

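Total RNA of 3 Nkx2-1-shRNA and 3 control MLE15 lines was hybridized to Mouse Gene ST arrays. Expression Console 1.1 of Affymetrix was used by the authors to obtain gene-level data with the RMA algorithm, so the deposited values are log2 expression values, and they were used unchanged. The algorithm subtracts background and equalizes the quantiles of the arrays, which would hide a shift common to all genes. The deposited values were not fully equal in level. Their medians were 5.10, 5.10 and 5.14 in the knock-down lines and 5.20, 5.18 and 5.21 in the controls. Median centring added 0.080 to every log2 fold change. The genome build behind the array annotation was not given in the sources used here. No detection call or p was used, and the 6 arrays limit the precision. The 10 genes and all gene lists were chosen with earlier results of these data known, and the lists of families and binding partners were added after the values of the 10 genes had been seen. A gene was read from its transcript cluster with a single symbol, the one with the highest mean where there were several. The groups were compared with limma 3.58.1 under R 4.3.3, using lmFit and eBayes without a block, a two-sided test with Benjamini-Hochberg adjustment over 35557 transcript clusters. The test was checked on simulated data. The background limit came from the 95th percentile over 1243 transcript clusters, for 1227 olfactory, vomeronasal and taste receptor genes. Genes were named by rule: the 10 genes, Nkx2-1, the gene on either side of each, and of each list up to 4 called genes with the largest change and its best known gene; further names from a list came from looking at the values. Other settings tried were the methods' t-test, one for unequal variances, array weights, a robust prior with trend, repeated quantile normalization, median centring, filters on level or annotation, a block for replicate number, leaving out each line, averaging the transcript clusters of a gene, a lower background limit and the study's threshold. Promoter windows and gene order came from RefSeq GRCm38.p6. Only protein-coding genes with a transcript cluster of a single symbol counted as neighbors, so other genes may lie between those called adjacent. The shRNA sequences and the microRNA arrays were not analysed here.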

Additional observations from a re-analysis of the deposited data

How the results depend on the processing

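Each result was recomputed under 19 alternatives, but Pdpn under 18, as it fell out of the filter on the median level. The calls of Clic5 were kept in all 19, with log2 fold changes of 1.46 to 1.58. Those of Cav1 (1.96 to 2.25), Cav2 (1.36 to 1.61), Emp2 (0.58 to 0.74) and Ager (0.70 to 0.90) kept their direction but ended with the t-test for unequal variances (adjusted p = 0.0665, 0.0990, 0.0858 and 0.118), as did that of Nkx2-1 (0.0550). That test left 1 of the 10 genes higher, with Akap5 still lower, and 5 higher and 0 lower of the 24 further type I genes; the cause was not tested. The methods' t-test called 5 higher and 1 lower of the 10 genes after Benjamini-Hochberg adjustment and none at the study's threshold. By limma at that threshold 2 of the 10 were higher and 0 lower, and 4 and 0 of the 24. Among transcript clusters above the median level, where 16 of the 24 were tested, 2 were lower. With single lines left out, 5 of the 10 stayed higher and 1 to 2 were lower, the second being Rtkn2 without control replicate 3, and 10 to 11 of the 24 were higher. The direction of uncalled genes turned for Hopx with repeated quantile normalization (0.019) and median centring (0.016), and for Aqp5 with median centring (0.034), without Nkx2-1-shRNA replicate 1 (0.0028) and without control replicate 3 (0.042), over a range of −0.13 to 0.042 when single lines were left out. Of 456 counts over the other lists, 71 moved by more than 1.5 times, 31 of them with a t-test or the study's threshold.

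Lines with the same replicate number did not deviate together in every pair (correlations 0.058, 0.14 and −0.034), so the numbers were not used as pairs. With a replicate block 5 of the 10 genes were higher and 1 lower, and 11 and 1 of the 24.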
